A study of Mus musculus with 16 samples.

Results

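Livers exposed to the lowest of 3 concentrations of diphenyl phosphate were compared here with untreated livers. The comparison takes in 8 of the 16 libraries of the study, chosen by the concentration on their labels. They are the 4 libraries of the group C1, from FVB/NCrl mice given 0.1 mg/L DPhP, and the 4 libraries of CTRL, from FVB/NCrl mice given 0 mg/L. Each group is 1 pool of livers, and its 4 libraries are repeat preparations from that pool. The p-values therefore measure the spread between preparations from 1 pool and not between mice, and the pool and the exposure cannot be told apart. The sources used here do not give the age, sex or number of mice, or the route and duration of exposure. Poly(A) RNA was read with a directional kit. The libraries held between 14434761 and 33387800 counts in C1 and between 24598433 and 33503129 in CTRL. Of 53372 genes in the table, 16828 had enough counts to be tested. Values are TMM-scaled CPM, in which the count of a gene is set against the size of its library. They compare libraries for a gene and not genes of different length, and log2 fold changes are C1 over CTRL ± SE. In RNA of whole liver, fewer cells of a type and less RNA per cell cannot be told apart.

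Diphenyl phosphate (DPhP) is an aryl phosphate diester, known as a breakdown product of triphenyl phosphate and other organophosphate flame retardants and plasticizers. Hepatocytes, the main liver cells, store and release glucose, burn fatty acids or turn them into ketone bodies, make cholesterol and bile acids, clear foreign compounds, and fold and secrete most plasma proteins. Glucocorticoids, insulin, fatty acids acting on the nuclear receptor PPARα, and the time of day are among the signals that set the level of the genes for these tasks. A liver sampled after feeding and the same liver sampled after fasting are known to differ in many of them.

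In C1, 1194 genes rose and 1363 fell (edgeR, Benjamini-Hochberg adjusted p under 0.05), which is 15.2% of the genes tested, 7.1% of them higher and 8.1% lower. DESeq2 called 2625 genes, and 2513 were called by both tools. The changes were mostly small: 322 genes (1.91%) changed at least 2-fold, 252 of them higher (1.5%) and 70 lower (0.416%). The libraries of C1 and CTRL did not overlap for 3154 genes (18.7%), of which 2119 were also called. The number of calls depended on the libraries that set the spread. Libraries of the same pool varied less in C1 (biological coefficient of variation 0.0855) and CTRL (0.117) than at 1 mg/L (0.286) and 10 mg/L (0.178). A model of all 16 libraries, which averages over these, called 414 genes (2.32%), 167 higher (0.938%) and 247 lower (1.39%), and the 413 of them tested in both models were all called here in the same direction. Counts from that model are given below as "16-library model". Upper-quartile scaling moved the median of all genes by 0.04 on the log2 scale and turned the split round, to 1490 higher and 1093 lower. Leaving out C1-4 lowered the count most, to 1556. Of the called genes that were still tested, 0 changed direction under the alternative settings or with any of the 8 libraries left out.

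**Figure D1:**
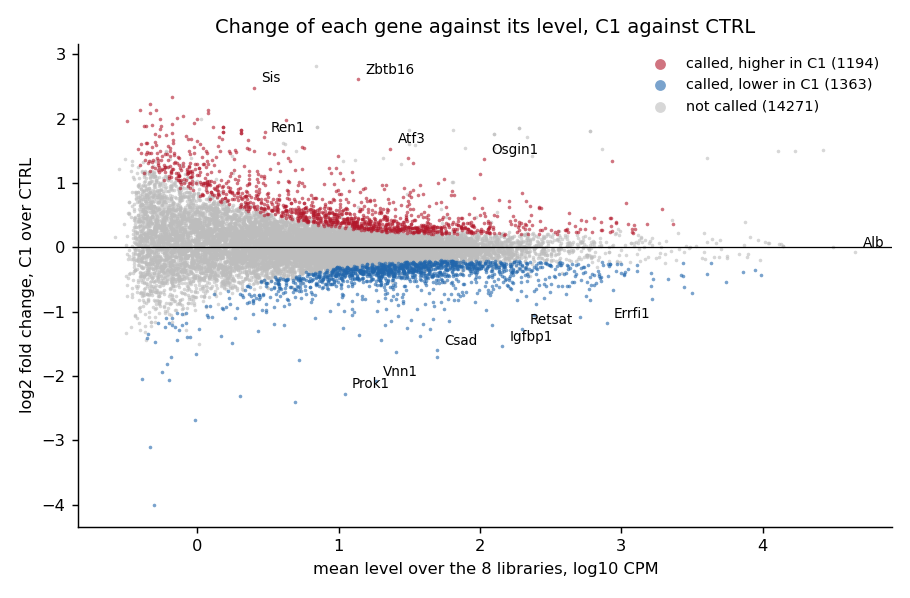
Log2 fold change of each of the 16828 tested genes (C1 over CTRL, vertical axis) against its mean level over the 8 libraries (log10 CPM, horizontal axis), with genes called higher in red (1194), called lower in blue (1363) and not called in grey. Large increases lie mostly at low levels, while called genes at high levels are mostly lower; values beyond the vertical axis are drawn at its edge.

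Direction differed with the level and the kind of transcript. Of genes with a mean under 1 CPM 143 rose and 28 fell of 2512, and 136 of the 252 genes that rose at least 2-fold were among them. The 28 that fell all changed at least 2-fold as well, so at this level almost only large changes were called. A gene this low could also pass the filter through 1 group alone. Among genes of at least 5 CPM the changes of at least 2-fold were 27 higher and 28 lower. Between 1 and 10 CPM more genes were higher as well, 466 against 247 lower of 6627. From 10 CPM up the split was the other way. Of 6567 genes between 10 and 100 CPM 479 rose and 829 fell. Of the 109 genes with the highest levels 10 rose and 22 fell, and of the 1013 in the class below, which starts at 100 CPM, 96 rose and 237 fell. Protein-coding genes had 868 higher and 1184 lower of 13133. Long intergenic noncoding RNAs had 63 higher (15.4%) and 15 lower (3.66%) of 410. Sense intronic transcripts, which lie within introns of other genes, had 16 higher (34%) and 0 lower of 47. The C2H2 zinc finger genes named Zfp had 32 higher (9.33%) and 3 lower (0.875%) of 343. Processed pseudogenes had 11 higher (1.04%) and 62 lower (5.86%) of 1058. Of all genes tested, 7.1% were higher and 8.1% lower. The 16-library model called 15 long intergenic RNAs higher and 5 lower, and 1 and 0 sense intronic transcripts. It called 5 Zfp genes higher and 1 lower, and 2 and 10 processed pseudogenes.

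These shifts went along with differences between the libraries as a whole. An index of nuclear-retained RNA averaged log2 CPM over Kcnq1ot1, Malat1, Neat1 and Xist. It was 9.16 ± 0.155 in C1 and 8.62 ± 0.251 in CTRL (SD, n = 4 each, exact two-sided permutation p = 0.0286, the smallest that 4 against 4 allows, and 0.0952 after Benjamini-Hochberg adjustment over 10 library measures). Genes at the ribosomal RNA locus took 8.14% ± 3.75 of counts in C1 and 2.99% ± 1.96 in CTRL (SD, n = 4 each, exact permutation p = 0.0571). CTRL-1 lay nearest to C1, with an index of 8.97 against 8.98 in C1-1, the lowest of C1. Its 5.81% of counts at the ribosomal RNA locus lay inside the range of C1, above the 2.90% of C1-2. It also lay nearest to C1 on the first principal component (38.4% of the variance), at -8.04, with the C1 libraries between 14.7 and 25 and the other CTRL libraries between -27.9 and -20.5. Without CTRL-1, 2935 genes were called, 1409 higher and 1526 lower. Alb, the albumin gene and a hepatocyte marker, had 40917 to 47274 CPM in C1 and 42171 to 51715 CPM in CTRL and was not called. What part the nuclear and ribosomal RNA had in the changes below was not tested.

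**Figure D2:**
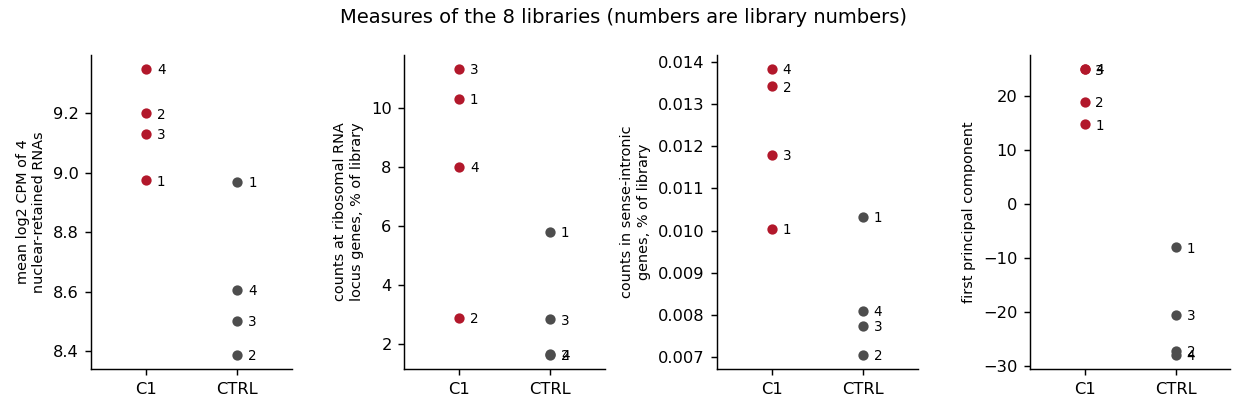
Nuclear-retained RNA index (mean log2 CPM), share of counts at ribosomal RNA locus genes (%), share in sense-intronic genes (%) and first principal component (arbitrary units) for each library, C1 in red and CTRL in grey, numbered by library. CTRL-1 is nearest to C1 among the CTRL libraries in the panels of the index and the first principal component. In the ribosomal and sense-intronic panels it lies inside the range of C1. C1-2 had the lowest ribosomal share of C1 at 2.90%, against 5.81% in CTRL-1, and C1-1 the lowest sense-intronic share at 0.01005%, against 0.01033% in CTRL-1.

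The largest increase among genes called in both models and above 2 CPM was that of Zbtb16, which encodes the transcription factor PLZF and responds to glucocorticoids in many tissues (chromosome 9, 48654297 to 48836222, GRCm38). It had 22.4, 23.8, 22.9 and 25.1 CPM in C1, against 4.39, 2.79, 3.78 and 4.47 CPM in CTRL. The C1 libraries lay close together and far above all CTRL libraries (log2 fold change 2.62 ± 0.12, edgeR adjusted p = 6.87e-13). Ren1, the renin gene, had 3.44, 5.07, 5.01 and 4.70 CPM in C1 and 1.75, 1.41, 1.14 and 1.22 CPM in CTRL (1.71 ± 0.20, edgeR adjusted p = 1.67e-06). Osgin1, a growth inhibitor gene induced by oxidative stress, had 149, 154, 160 and 156 CPM in C1 and 57.3, 54.0, 50.5 and 78.2 CPM in CTRL (1.37 ± 0.10). Its C1 libraries were nearly alike, while CTRL-4 stood above the other CTRL libraries. Cxcl1, a chemokine gene that draws neutrophils, rose to 45.1 ± 5.55 CPM in C1, against 17.2 ± 2.64 CPM in CTRL (SD, n = 4 each, log2 fold change 1.39 ± 0.10). Efna1, a membrane-bound ligand of Eph receptors, stood at 67.6 ± 4.39 CPM in C1 and 33.6 ± 2.79 CPM in CTRL (SD, n = 4 each, 1.01 ± 0.08).

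Among the genes that fell furthest was Prok1, which encodes a secreted prokineticin (chromosome 3, 107232797 to 107239707). Prok1 had 3.69, 3.60, 4.79 and 3.23 CPM in C1, against 18.4, 17.4, 17.6 and 19.6 CPM in CTRL (log2 fold change -2.27 ± 0.12, edgeR adjusted p = 5.61e-12). Every C1 library lay under 5 CPM and every CTRL library above 17. Vnn1, a pantetheinase gene that PPARα induces in liver (chromosome 10, 23894688 to 23905343), had 8.09, 5.88, 7.04 and 6.82 CPM in C1 and 28.4, 33.1, 32.9 and 24.2 CPM in CTRL (-2.08 ± 0.12, edgeR adjusted p = 2.16e-11). Csad, the decarboxylase that makes hypotaurine for taurine synthesis (chromosome 15, 102176999 to 102204724), had 24.5, 24.9, 26.6 and 22.4 CPM in C1 and 73.0, 76.8, 72.0 and 75.2 CPM in CTRL (-1.60 ± 0.07, edgeR adjusted p = 6.87e-13). Both groups were tight for Csad and no library came near the other group. Adcy1, an adenylate cyclase gene, averaged 0.698 ± 0.321 CPM in C1 and 3.31 ± 0.552 CPM in CTRL (SD, n = 4 each, -2.31 ± 0.25). Rasgef1b, a guanine nucleotide exchange factor gene for Ras-like GTPases, averaged 10.7 ± 0.665 CPM in C1 and 29.0 ± 2.76 CPM in CTRL (SD, n = 4 each, -1.44 ± 0.09).

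**Figure D3:**
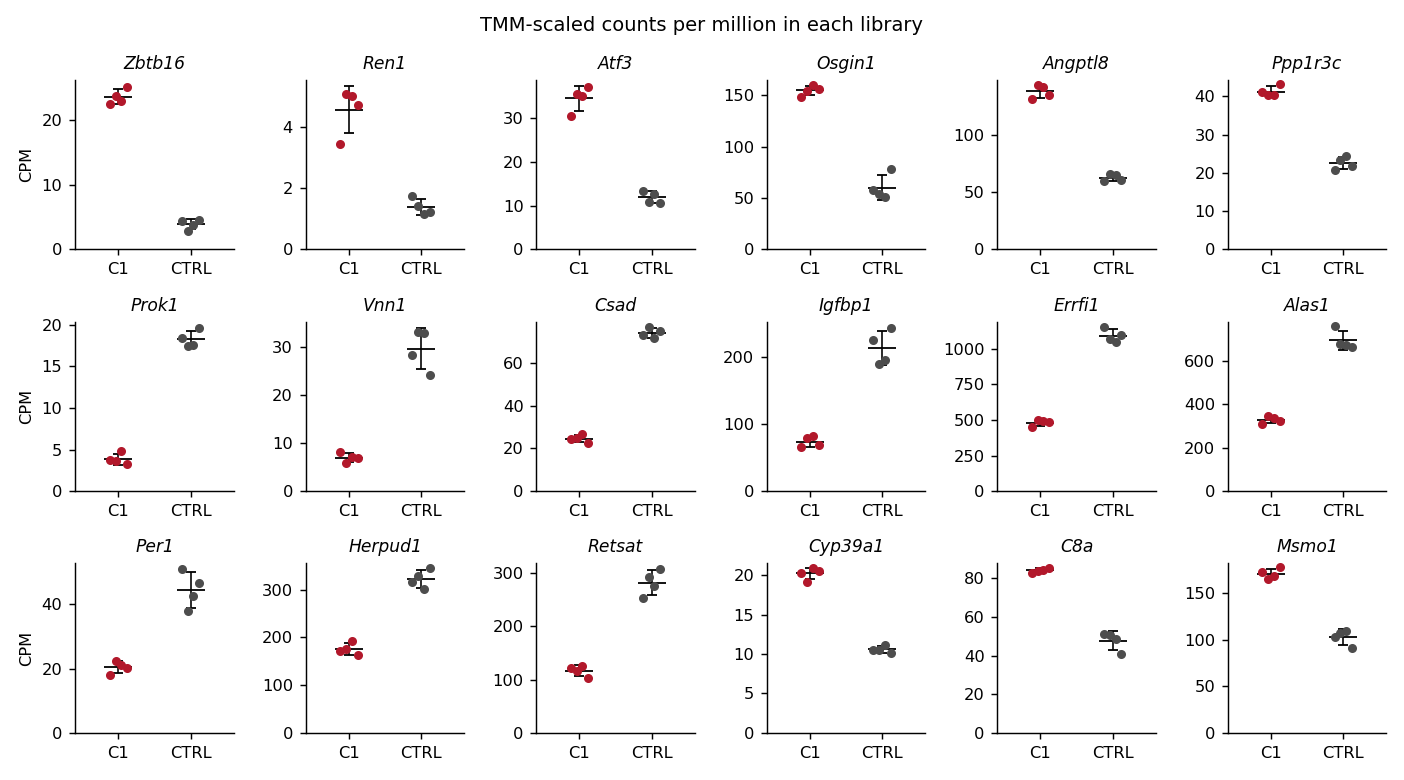
TMM-scaled CPM of 18 genes in each library, with C1 in red left of CTRL in grey, points for the 4 libraries of a group, and bars for the mean ± SD. The groups do not overlap in any of these panels; the genes that rose are those of the first row together with Cyp39a1, C8a and Msmo1.

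Glucocorticoid responsive genes mostly fell, although Zbtb16 rose. Of 25 listed and tested members 17 were lower and 4 higher (68% and 16%, against 8.1% and 7.1% of all genes), with a median log2 fold change of -0.59, and 11 lower and 2 higher in the 16-library model. With each library left out in turn, between 14 and 18 were lower. All 25 had an unadjusted edgeR p under 0.05. This list, like the others, was chosen with earlier results of these data known, so its shares describe the list and do not test enrichment. Counts of the lists below are likewise to be read beside the 8.1% lower and 7.1% higher of all genes. These shares depended on level. Of protein-coding genes in the level class that starts at 100 CPM, 23.4% were lower and 9.24% higher. Whether a list differs from genes of like level was not tested. The lower members included Tsc22d3, the GILZ gene through which glucocorticoids dampen inflammation, with 54.8, 48.9, 52.0 and 44.8 CPM in C1 and 86.9, 86.7, 90.7 and 90.5 CPM in CTRL (-0.82 ± 0.07, edgeR adjusted p = 3.89e-08). Fkbp5, a co-chaperone gene of the glucocorticoid receptor, had 27.5, 30.7, 31.1 and 25.7 CPM in C1 and 42.7, 41.9, 40.8 and 47.9 CPM in CTRL (-0.59 ± 0.08). In both genes all C1 libraries lay below all CTRL libraries. Per1, a clock repressor gene that glucocorticoids also induce, had 17.9, 22.5, 21.2 and 20.3 CPM in C1 and 51.2, 38.0, 42.6 and 46.8 CPM in CTRL (-1.13 ± 0.09, edgeR adjusted p = 1.18e-08). Pdk4, the kinase that shuts off pyruvate dehydrogenase in fasting, was among the 4 members that rose, with 11.4, 13.4, 11.2 and 13.8 CPM in C1 and 6.68, 7.40, 7.54 and 5.56 CPM in CTRL (0.87 ± 0.12). The others that rose were Zbtb16, Mt2, a metallothionein gene (0.44 ± 0.08; not called in the 16-library model), and Sult1e1, the estrogen sulfotransferase gene (1.02 ± 0.32; not called in the 16-library model), whose call was lost in 5 of the 8 fits with a library left out.

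Sgk1, a kinase gene under direct glucocorticoid control, is shown because it was the only 1 of 22 members with a RefSeq promoter window to hold the palindrome AGAACANNNTGTTC, searched on both strands in the 250 bases before and 50 after the start. The palindrome occurred in 0.0487% of all 32851 windows. Sgk1 had 22.2, 20.5, 21.8 and 21 CPM in C1 and 28.9, 31.3, 28.3 and 28.6 CPM in CTRL (-0.45 ± 0.08, edgeR adjusted p = 0.00029). The 250 bases before its start follow (chr10:21993640-21993889, plus strand, GRCm38.p6), with the 15 bases covered by matches of the palindrome on either strand in capitals.
Sgk1: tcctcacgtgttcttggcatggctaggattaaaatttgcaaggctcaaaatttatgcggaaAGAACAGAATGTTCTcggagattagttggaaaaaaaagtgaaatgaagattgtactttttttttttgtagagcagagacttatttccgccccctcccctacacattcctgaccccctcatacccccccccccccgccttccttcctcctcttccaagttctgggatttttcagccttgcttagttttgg

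Genes of insulin and growth factor signalling overlapped with these. Of 35 members of the insulin, growth hormone and IGF axis 10 fell (28.6%) and 3 rose (8.57%), with a median of -0.09 (5 and 1 in the 16-library model). Igfbp1, a secreted IGF binding protein that insulin represses, had 65.9, 79.3, 82.4 and 68.7 CPM in C1 and 227, 191, 196 and 245 CPM in CTRL (-1.54 ± 0.09, edgeR adjusted p = 6.95e-11). Ddit4, a stress-induced inhibitor of the mTORC1 kinase, had 2.21, 2.07, 3.19 and 2.26 CPM in C1 and 8.66, 6.42, 7.96 and 8.97 CPM in CTRL (-1.74 ± 0.16). Errfi1, a feedback inhibitor of EGF receptor signalling, had 448, 502, 494 and 483 CPM in C1 and 1156, 1066, 1048 and 1099 CPM in CTRL (-1.18 ± 0.07). All C1 libraries of these genes lay well under all CTRL libraries. Igfals, which encodes a carrier of IGFs in plasma, averaged 88.5 ± 14.2 CPM in C1 and 148 ± 22.8 CPM in CTRL (SD, n = 4 each, -0.74 ± 0.12). Bcl6, a transcriptional repressor gene, averaged 12.8 ± 1.31 CPM in C1 and 7.63 ± 0.743 CPM in CTRL (SD, n = 4 each, 0.74 ± 0.11). Angptl8, an insulin-induced inhibitor of lipoprotein lipase, rose with 132, 145, 142 and 135 CPM in C1 and 59.6, 66.5, 64.9 and 60.9 CPM in CTRL (1.14 ± 0.07, edgeR adjusted p = 6.96e-11).

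Among glucose metabolism genes more were lower than higher. Of 32 genes of glycolysis and gluconeogenesis 13 fell (40.6%) and 3 rose (9.4%), with a median of -0.18 (3 and 2 in the 16-library model). G6pc, the glucose-6-phosphatase that releases glucose, had 426, 468, 494 and 470 CPM in C1 and 802, 702, 755 and 639 CPM in CTRL (-0.64 ± 0.08). Pck1, the gluconeogenic PEP carboxykinase, had 1189, 1331, 1378 and 1282 CPM in C1 and 2065, 1878, 1858 and 2081 CPM in CTRL (-0.61 ± 0.07, edgeR adjusted p = 4.51e-06, but 0.164 in the 16-library model). Gpd1, which links glycolysis to glycerol phosphate, averaged 133 ± 15.3 CPM in C1 and 234 ± 24.8 CPM in CTRL (SD, n = 4 each, -0.81 ± 0.09). In the glycogen list 1 of 22 genes was higher (4.5%) and 3 were lower (13.6%), against 7.1% and 8.1% of all genes. Ppp1r3c and Ppp1r3g, which encode glycogen-targeting subunits of protein phosphatase 1, moved apart. Ppp1r3c had 41.2, 40.3, 40.2 and 43.2 CPM in C1 and 20.8, 23.3, 24.4 and 21.9 CPM in CTRL (0.87 ± 0.08). Ppp1r3g had 11.7, 14.2, 12.8 and 11.1 CPM in C1 and 38.9, 28.0, 30.4 and 55.7 CPM in CTRL (-1.62 ± 0.23). The Ppp1r3g libraries were alike in C1 and spread widely in CTRL.

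Genes of the early secretory pathway, which folds proteins in the endoplasmic reticulum (ER) and ships them to the Golgi, fell where they were called. Of 28 ER chaperone and ER-associated degradation genes 19 fell (67.9%) and 0 rose, with a median of -0.28, and 7 fell in the 16-library model. Upper-quartile scaling left 15 of them lower. Hspa5, the chaperone BiP, had 604, 605, 553 and 586 CPM in C1 and 759, 967, 917 and 730 CPM in CTRL (-0.52 ± 0.09, edgeR adjusted p = 0.000158, and 0.307 in the 16-library model). Herpud1, which helps to clear misfolded proteins from the ER, had 172, 176, 192 and 163 CPM in C1 and 315, 328, 300 and 346 CPM in CTRL (-0.88 ± 0.07, edgeR adjusted p = 1.56e-08). Creld2, an ER stress-induced disulfide isomerase gene, had 18.2, 17.2, 16.7 and 15.0 CPM in C1 and 24.6, 28.3, 26.0 and 30.4 CPM in CTRL (-0.70 ± 0.09). For each of these the groups did not overlap. Hyou1, an ER chaperone of the large HSP70 type, averaged 88.5 ± 4.70 CPM in C1 and 141 ± 9.86 CPM in CTRL (SD, n = 4 each, -0.67 ± 0.07). Derl3, a derlin gene of ER-associated degradation, had 1.03, 1.69, 1.02 and 1.01 CPM in C1 and 3.03, 2.04, 2.19 and 2.82 CPM in CTRL (-1.09 ± 0.23). Calr, the calcium-binding chaperone calreticulin, averaged 364 ± 15.2 CPM in C1 and 532 ± 48.7 CPM in CTRL (SD, n = 4 each, -0.54 ± 0.08; not called in the 16-library model).

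Promoters of this list are shown because many hold the ER stress response element, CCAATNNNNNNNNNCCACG, to which ATF6 and NF-Y are known to bind. On either strand it lay in 9 of the 22 windows of members, and in 0.195% of the windows of all tested genes that have one. It was in 6 of the 15 members with a window that fell, about the same share as in the whole list, and also in members that were not called. The element thus did not set the called members apart from the rest of the list. The related element ATTGGNCCACG lay in the windows of Herpud1 and Dnajb11, and in 0.0834% of those of tested genes. The 250 bases before the start are given from the plus strand of GRCm38.p6 for Hspa5 (chr2:34771840-34772089), Creld2 (chr15:88819396-88819645), Derl3 (chr10:75893148-75893397) and Herpud1 (chr8:94386179-94386428), with the match in capitals. The matches begin 65, 126, 156 and 52 bases before the start.
Hspa5: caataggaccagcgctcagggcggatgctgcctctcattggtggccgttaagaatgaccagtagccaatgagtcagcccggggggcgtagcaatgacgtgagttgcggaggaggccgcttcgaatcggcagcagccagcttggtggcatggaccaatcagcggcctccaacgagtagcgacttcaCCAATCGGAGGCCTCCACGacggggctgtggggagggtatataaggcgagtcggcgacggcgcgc
Creld2: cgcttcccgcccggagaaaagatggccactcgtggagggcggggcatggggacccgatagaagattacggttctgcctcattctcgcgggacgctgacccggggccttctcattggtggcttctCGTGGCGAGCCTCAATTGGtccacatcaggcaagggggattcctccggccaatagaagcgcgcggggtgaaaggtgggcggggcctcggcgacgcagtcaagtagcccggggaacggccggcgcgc
Derl3: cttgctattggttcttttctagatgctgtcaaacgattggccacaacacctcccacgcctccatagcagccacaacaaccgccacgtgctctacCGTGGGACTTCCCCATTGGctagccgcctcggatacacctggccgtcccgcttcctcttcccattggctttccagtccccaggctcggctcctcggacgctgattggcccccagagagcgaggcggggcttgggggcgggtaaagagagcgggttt
Herpud1: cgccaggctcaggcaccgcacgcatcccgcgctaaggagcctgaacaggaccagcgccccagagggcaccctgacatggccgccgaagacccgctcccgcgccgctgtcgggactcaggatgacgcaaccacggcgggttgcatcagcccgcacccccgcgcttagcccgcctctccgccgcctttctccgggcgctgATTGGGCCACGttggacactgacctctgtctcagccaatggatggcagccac

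Other lists of the same pathway also had 0 members higher. Of 23 translocon and signal recognition genes 5 fell, of 32 genes of COPI and COPII vesicle traffic 15 fell, and of 27 N-glycosylation genes 10 fell. The 16-library model called 0, 0 and 2 of these lower and 0 higher. Without C1-4 the counts were 3, 7 and 6, and upper-quartile scaling gave 4, 9 and 8. Unadjusted p-values were under 0.05 for 7, 20 and 13 genes here, and DESeq2 called 6, 16 and 10. Sec24d, a cargo adaptor of COPII vesicles, averaged 38.6 ± 3.16 CPM in C1 and 52.6 ± 2.55 CPM in CTRL (SD, n = 4 each, -0.44 ± 0.08; not called in the 16-library model). Srpr, a subunit of the signal recognition particle receptor, averaged 80.5 ± 5.86 CPM in C1 and 107 ± 9.89 CPM in CTRL (SD, n = 4 each, -0.41 ± 0.08; not called in the 16-library model). Gfpt1, which makes the amino sugar that feeds glycosylation, averaged 19.3 ± 1.23 CPM in C1 and 25.8 ± 1.02 CPM in CTRL (SD, n = 4 each, -0.42 ± 0.08).

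Genes of fatty acid oxidation and ketone bodies that passed the test were lower, apart from 2 PPARα targets. Of 33 PPARα targets 13 fell and 2 rose (6 and 2 in the 16-library model), of 21 genes of mitochondrial fatty acid oxidation 14 fell and 0 rose (2 and 0), of 20 genes of peroxisomal fatty acid oxidation 6 fell and 0 rose (2 and 0), and of 11 ketone body genes 6 fell and 0 rose (3 and 0). The medians were -0.25, -0.34, -0.17 and -0.37. With any 1 library left out, 4 to 8 of the peroxisomal genes were lower, 4 without C1-1 or without C1-2. Bdh1, which makes beta-hydroxybutyrate, had 162, 169, 172 and 131 CPM in C1 and 239, 276, 252 and 300 CPM in CTRL (-0.75 ± 0.09). The libraries of the groups did not overlap, and C1-4 was the lowest. Cyp4a14, a fatty acid omega-hydroxylase and PPARα target, had 24.4, 24.7, 26.4 and 28.4 CPM in C1 and 58.7, 70.6, 65.4 and 54.6 CPM in CTRL (-1.26 ± 0.09). Cd36, a fatty acid uptake protein, averaged 18 ± 1.49 CPM in C1 and 42.8 ± 6 CPM in CTRL (SD, n = 4 each, -1.25 ± 0.10). Acadm, the medium-chain acyl-CoA dehydrogenase, averaged 208 ± 8.35 CPM in C1 and 312 ± 12.7 CPM in CTRL (SD, n = 4 each, -0.59 ± 0.07). Retsat, an oxidoreductase that saturates retinol, had 122, 116, 126 and 102 CPM in C1 and 252, 292, 276 and 308 CPM in CTRL (-1.27 ± 0.08, edgeR adjusted p = 1.12e-10).

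Called genes of fatty acid synthesis were mostly lower, and those of cholesterol synthesis were higher. Of 29 fatty acid and triglyceride synthesis genes 13 fell and 3 rose (3 and 0 in the 16-library model; 8 fell without C1-2), whereas of 27 cholesterol synthesis genes and SREBP2 targets 9 rose and 0 fell (3 and 0). The medians were -0.21 and 0.18. Elovl6, which elongates palmitate, had 125, 128, 132 and 117 CPM in C1 and 183, 191, 193 and 190 CPM in CTRL (-0.59 ± 0.07, edgeR adjusted p = 1.81e-06). Dgat2, which makes triglycerides, averaged 338 ± 20.6 CPM in C1 and 513 ± 85.8 CPM in CTRL (SD, n = 4 each, -0.60 ± 0.09). Acacb, which makes the malonyl-CoA that restrains fatty acid import into mitochondria, averaged 105 ± 2.49 CPM in C1 and 77.1 ± 8.10 CPM in CTRL (SD, n = 4 each, 0.45 ± 0.08; not called in the 16-library model). Msmo1, a sterol demethylase of cholesterol synthesis, had 172, 166, 168 and 178 CPM in C1 and 104, 108, 110 and 91.0 CPM in CTRL (0.73 ± 0.07, edgeR adjusted p = 2.2e-07). Insig1, which holds SREBPs in the ER and is itself an SREBP target, had 740, 753, 738 and 726 CPM in C1 and 522, 571, 548 and 507 CPM in CTRL (0.46 ± 0.07). The C1 libraries of both genes lay above all CTRL libraries. Of 33 lipoprotein and lipid droplet genes 11 fell (33.3%) and 2 rose (6.06%), with 3 and 2 in the 16-library model. G0s2, an inhibitor of the triglyceride lipase ATGL, had 81.7, 77.0, 69.1 and 75.0 CPM in C1 and 31.1, 43.3, 38.8 and 31.9 CPM in CTRL (1.06 ± 0.09). Fitm1, which helps lipid droplets form, averaged 4.38 ± 0.532 CPM in C1 and 9.32 ± 0.953 CPM in CTRL (SD, n = 4 each, -1.10 ± 0.13).

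**Figure D4:**
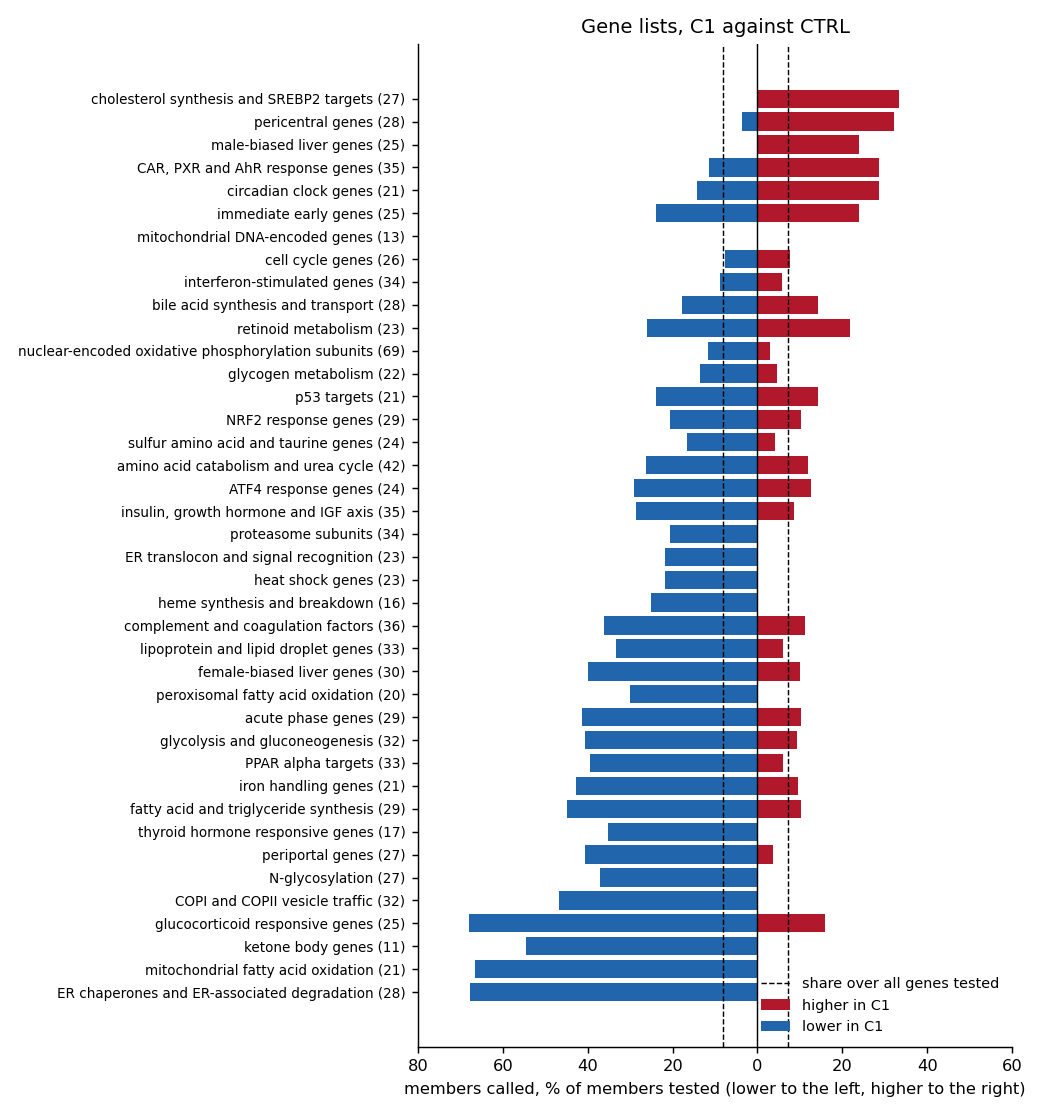
Share of tested members called higher (red, to the right) or lower (blue, to the left) in C1 against CTRL for each pathway list with at least 10 tested members (cell type markers are not drawn), in percent, with the number tested in brackets and dashed lines at the share over all genes (7.1% higher, 8.1% lower). Among the lists drawn, ER chaperones, mitochondrial fatty acid oxidation and glucocorticoid responsive genes reach furthest to the left, and cholesterol synthesis and pericentral genes furthest to the right.

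Bile acid genes moved in both directions, with 4 higher and 5 lower of 28 (14.3% and 17.9%, against 7.1% and 8.1% of all genes). Cyp39a1, an oxysterol hydroxylase, had 20.3, 19.2, 20.9 and 20.5 CPM in C1 and 10.6, 10.5, 11.1 and 10.2 CPM in CTRL (0.93 ± 0.09, edgeR adjusted p = 9.13e-08). Both groups were narrow and far apart. Acox2, which shortens the bile acid side chain, averaged 60.8 ± 6.70 CPM in C1 and 98.0 ± 7.52 CPM in CTRL (SD, n = 4 each, -0.69 ± 0.08), and Abcg8, a subunit of the sterol exporter, averaged 52.0 ± 1.65 CPM in C1 and 80.6 ± 5.87 CPM in CTRL (SD, n = 4 each, -0.63 ± 0.07).

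Genes for the handling of foreign compounds were split. Of 35 genes that respond to the receptors CAR, PXR and AhR 10 rose (28.6%) and 4 fell (11.4%), with 4 and 2 in the 16-library model. Cyp1a2, an AhR target that oxidizes aromatic amines, had 291, 239, 284 and 244 CPM in C1 and 138, 136, 155 and 212 CPM in CTRL (0.72 ± 0.13, edgeR adjusted p = 0.00204). CTRL-4 came nearest to the C1 libraries. Gsta1, a glutathione transferase, had 7.99, 5.61, 7.62 and 8.11 CPM in C1 and 4.12, 4.05, 3.63 and 2.82 CPM in CTRL (1.01 ± 0.15), although near-identical paralogs may share its reads. Cyp2b13, a cytochrome P450 biased to female liver with close paralogs, averaged 276 ± 10.7 CPM in C1 and 178 ± 16 CPM in CTRL (SD, n = 4 each, 0.64 ± 0.08). Alas1, which encodes the enzyme that starts and limits heme synthesis, had 309, 344, 338 and 325 CPM in C1 and 758, 679, 672 and 665 CPM in CTRL (-1.08 ± 0.07, edgeR adjusted p = 2.76e-10). In the heme list 4 of 16 genes fell and 0 rose. That is 25% lower, against 23.4% of protein-coding genes in the level class that starts at 100 CPM. Among 29 genes of the NRF2 response to oxidants 3 rose (10.3%) and 6 fell (20.7%), or 3 fell without C1-4. The 16-library model called 2 higher and 2 lower. Osgin1 and Gsta1, given above, were among the members that rose. Ephx1, the microsomal epoxide hydrolase, had 65.9, 60.7, 76.4 and 59.2 CPM in C1 and 103, 122, 122 and 124 CPM in CTRL (-0.85 ± 0.08). Of 17 tested UDP-glucuronosyltransferase genes 0 were called in either direction.

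Iron and retinoid genes gave further named changes. Of 21 iron handling genes 9 fell (42.9%) and 2 rose (9.52%), with 0 and 1 in the 16-library model. Id1, a target of BMP signalling, had 38.9, 36.0, 36.1 and 32.9 CPM in C1 and 19.9, 19.6, 22.7 and 21.4 CPM in CTRL (0.78 ± 0.08, edgeR adjusted p = 4.27e-07). Ftl1, the ferritin light chain, averaged 1387 ± 162 CPM in C1 and 1953 ± 239 CPM in CTRL (SD, n = 4 each, -0.49 ± 0.09; not called in the 16-library model), with reads that its pseudogenes may share. Of 23 retinoid genes 5 rose (21.7%) and 6 fell (26.1%), and between 3 and 4 rose with any 1 library left out. Cyp26a1, which degrades retinoic acid and is induced by it, had 6.84, 5.72, 9.66 and 7.38 CPM in C1 and 16.4, 13, 13.7 and 14.9 CPM in CTRL (-0.99 ± 0.13).

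Clock and immediate early genes moved in both directions. Of 21 clock genes 6 rose (28.6%) and 3 fell (14.3%), with 4 and 2 in the 16-library model. Arntl, which encodes the activator BMAL1, had 3.21, 3.00, 2.98 and 3.37 CPM in C1 and 1.59, 1.66, 1.29 and 1.49 CPM in CTRL (1.07 ± 0.19, edgeR adjusted p = 0.000341), while Per1, given above, fell. Noct, a rhythmic phosphatase gene, averaged 38.0 ± 3.40 CPM in C1 and 68.2 ± 8.85 CPM in CTRL (SD, n = 4 each, -0.84 ± 0.09). Dbp, an output gene of the clock, had 53.1, 52.5, 53.4 and 47.4 CPM in C1 and 68.7, 62.5, 65.1 and 104 CPM in CTRL (-0.54 ± 0.14, edgeR adjusted p = 0.0242; not called in the 16-library model), and its call was lost without C1-4. Of 25 immediate early genes 6 rose (24%), or 3 without CTRL-3, and 6 fell (24%). Atf3, a stress-induced transcription factor gene, had 30.5, 35.6, 35.1 and 37.2 CPM in C1 and 13.4, 10.8, 12.7 and 10.6 CPM in CTRL (1.54 ± 0.09, edgeR adjusted p = 6.96e-11). Nr4a1, an orphan nuclear receptor gene, had 25.6, 28.6, 31.5 and 29.0 CPM in C1 and 17.8, 12.7, 14.7 and 13.4 CPM in CTRL (0.97 ± 0.10). Myc, a growth-promoting transcription factor gene, had 11.8, 12.2, 13.8 and 13.8 CPM in C1 and 35.3, 24.6, 28.5 and 30.1 CPM in CTRL (-1.21 ± 0.10). Gadd45g, a growth arrest gene, had 21.5, 23.2, 26.9 and 21.7 CPM in C1 and 79.3, 66, 66.3 and 91.9 CPM in CTRL (-1.71 ± 0.10). The groups were separate for each of these genes, whichever way it moved.

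Among amino acid genes more were lower than higher. The list of amino acid catabolism and the urea cycle had 26.2% lower and 11.9% higher. Protein-coding genes in the level class that starts at 100 CPM had similar shares, 23.4% lower and 9.24% higher. Of 42 genes of amino acid catabolism and the urea cycle 11 fell and 5 rose (2 and 1 in the 16-library model; 6 fell without C1-2 or without C1-4, and 3 to 4 rose with any 1 library left out), and of 24 sulfur amino acid and taurine genes 4 fell, Csad among them, and 1 rose. Got1, the cytosolic aspartate aminotransferase, had 126, 128, 129 and 113 CPM in C1 and 191, 173, 186 and 190 CPM in CTRL (-0.58 ± 0.07). Prodh, the first enzyme of proline breakdown, averaged 199 ± 7.38 CPM in C1 and 141 ± 5.13 CPM in CTRL (SD, n = 4 each, 0.49 ± 0.07). Of 24 genes of the ATF4 response to amino acid shortage 7 fell (29.2%) and 3 rose (12.5%), with 4 and 0 in the 16-library model. Slc38a2, a neutral amino acid transporter gene, had 155, 165, 156 and 157 CPM in C1 and 365, 313, 323 and 305 CPM in CTRL (-1.05 ± 0.07, edgeR adjusted p = 5.14e-10). Chac1, a glutathione-degrading enzyme, had 1.03, 0.872, 0.726 and 1.01 CPM in C1 and 2.95, 3.14, 2.01 and 2.43 CPM in CTRL (-1.49 ± 0.23). Gdf15, a stress hormone gene, went the other way, with 24.9, 30.1, 28.9 and 24.5 CPM in C1 and 14.1, 10.8, 13.6 and 16.7 CPM in CTRL (0.97 ± 0.11, edgeR adjusted p = 2.14e-06, and 0.116 in the 16-library model).

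Plasma protein genes of the liver mostly fell where called. Of 29 acute phase genes 12 fell (41.4%) and 3 rose (10.3%), with 2 and 0 in the 16-library model, and 1 rose without C1-1. Of 36 complement and coagulation genes 13 fell (36.1%) and 4 rose (11.1%), with 3 and 1 in the 16-library model. C3, the central complement component, had 2536, 2383, 2548 and 2132 CPM in C1 and 3461, 3799, 3386 and 4950 CPM in CTRL (-0.70 ± 0.10, edgeR adjusted p = 9.36e-05). C8a, a subunit of the membrane attack complex, had 82.5, 83.8, 84.5 and 85.4 CPM in C1 and 50.9, 50.6, 48.6 and 40.9 CPM in CTRL (0.81 ± 0.08, edgeR adjusted p = 6.45e-08). C8b, its partner subunit, averaged 60.7 ± 2.87 CPM in C1 and 37.4 ± 5.02 CPM in CTRL (SD, n = 4 each, 0.70 ± 0.09; not called in the 16-library model). Saa3, an acute phase apolipoprotein, averaged 2.84 ± 0.489 CPM in C1 and 5.44 ± 0.464 CPM in CTRL (SD, n = 4 each, -0.91 ± 0.16). Serpina7, the thyroxine-binding globulin, had 15.4, 14.3, 14.1 and 15.4 CPM in C1 and 29.9, 30.2, 29.6 and 25.2 CPM in CTRL (-0.95 ± 0.09), and of 38 tested serpin genes 10 fell and 0 rose.

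Lists of sex-biased and zonated liver genes were split by direction. Of 30 genes biased to female liver 12 fell (40%) and 3 rose (10%), with 3 and 1 in the 16-library model. Of 25 biased to male liver 6 rose (24%) and 0 fell (2 and 0). Of 28 pericentral genes, expressed near the central vein, 9 rose (32.1%) and 1 fell (3.57%), with 2 and 0 in the 16-library model. Of 27 periportal genes, expressed near the portal vein, 11 fell (40.7%) and 1 rose (3.7%), with 2 and 0 in the 16-library model. Without C1-2 or without C1-4 7 fell. These lists share members with those above, such as Cyp1a2, G6pc, Pck1, C8a and Cd36. Tbx3, a transcription factor gene of pericentral hepatocytes, had 20.8, 19.2, 16.5 and 17.1 CPM in C1 and 9.56, 7.68, 10.6 and 12.9 CPM in CTRL (0.86 ± 0.13, edgeR adjusted p = 5.97e-05). Of 21 tested major urinary protein genes, whose near-identical copies share reads, 10 rose (47.6%, against 7.1% of all genes) and 0 fell. The 16-library model called 0 of them in either direction. Some of these genes, such as Mup1 and Mup7, are also in the list biased to male liver.

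Some housekeeping groups had shares of lower genes near that of all genes (8.1%) and others had larger ones. Nuclear-encoded subunits of oxidative phosphorylation had 2 higher and 8 lower of 69, or 2 lower without C1-4, and 0 higher without C1-1, C1-2 or CTRL-3. Of the 13 listed genes of mitochondrial DNA 0 were called by edgeR or DESeq2, and 1 had an unadjusted p under 0.05. Of all 36 tested genes of the mitochondrial chromosome, however, 7 rose (19.4%) and 1 fell (2.78%). The 16-library model called 0 of these 36 in either direction. Ribosomal protein genes had 1 higher and 5 lower of 86, and interferon-stimulated genes 2 higher and 3 lower of 34, or 1 to 2 higher and 1 to 5 lower with any 1 library left out, the most without CTRL-4. Proteasome subunits had 0 higher and 7 lower of 34 (20.6%), or 2 lower without C1-4, 3 without CTRL-3 and 4 without C1-2, and heat shock genes had 0 higher and 5 lower of 23 (21.7%), or 3 without C1-4 and 8 without CTRL-1. Of 26 cell cycle genes 2 rose and 2 fell, or 1 to 3 fell with any 1 library left out. Ccnd1, the cyclin D1 gene, averaged 104 ± 4.90 CPM in C1 and 149 ± 9.07 CPM in CTRL (SD, n = 4 each, -0.52 ± 0.07; not called in the 16-library model).

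Markers of other cell types differed between the pools as well. Of 16 tested intestinal epithelium markers 12 were higher and 3 lower, and the 16-library model called 6 higher and 1 lower. The 3 lower ones, Apoa4, Anpep and Fabp2, are known to be expressed in hepatocytes too. The whole list summed to 517.5 to 628.4 CPM in C1 and 782.3 to 1052 CPM in CTRL, so that its sum was lower in C1, while the 13 members without these 3, a choice made after their values were seen, held 55.0 to 67.4 CPM in C1 and 19.6 to 32.2 CPM in CTRL. Sis, the sucrase-isomaltase of the small intestine, had 5.68, 2.89, 4.36 and 4.10 CPM in C1 and 1.13, 0.599, 0.961 and 0.353 CPM in CTRL (2.48 ± 0.27, edgeR adjusted p = 1.37e-06). Reg1, a secreted lectin gene of gut and pancreas, had 8.25, 6.81, 6.32 and 5.86 CPM in C1 and 1.55, 2.08, 2.13 and 1.10 CPM in CTRL (1.98 ± 0.19, edgeR adjusted p = 7.41e-08). Alpi, the intestinal alkaline phosphatase, had 6.20, 4.14, 8.71 and 4.93 CPM in C1 and 2.41, 1.62, 2.67 and 1.65 CPM in CTRL (1.49 ± 0.22). All C1 libraries lay above all CTRL libraries for these genes. Several of the largest increases, those of Sis, Reg1, Cdh17, Rbp2, Alpi and possibly Sult6b2 and Prap1, which the intestine is also known to express, belong beside this measurement.

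Of 11 tested B and plasma cell markers Igha, Igkc and Jchain were higher, also in the 16-library model, and 0 were lower; the other 8 did not pass the test. Igha, the heavy chain of IgA, had 20.7, 14.8, 19.9 and 13.4 CPM in C1 and 7.73, 8.18, 9.76 and 4.74 CPM in CTRL (1.17 ± 0.20, edgeR adjusted p = 0.00247). Jchain, which joins IgA chains, averaged 7.68 ± 2.35 CPM in C1 and 3.37 ± 1.08 CPM in CTRL (SD, n = 4 each, 1.21 ± 0.25). Of 6 erythroid markers 5 fell (0 in the 16-library model, 2 without C1-4), with Hba-a1, an alpha globin with a near-identical copy, at 599, 511, 481 and 449 CPM in C1 and 696, 699, 897 and 758 CPM in CTRL (-0.58 ± 0.09; not called in the 16-library model). The erythroid list summed to 1463 to 1900 CPM in C1 and 2056 to 2664 CPM in CTRL. Of 8 skeletal muscle markers 3 fell (0 in the 16-library model; 5 without CTRL-3, 3 without C1-1 or CTRL-1 and 1 without any other library), among them Myh2, a myosin heavy chain gene, with 0.161, 0.163, 0 and 0 CPM in C1 and 0.622, 0.670, 0.450 and 1.65 CPM in CTRL, where CTRL-4 was highest. Of 14 sinusoidal endothelial markers 4 rose and 0 fell (0 in the 16-library model; 2 rose without C1-2, C1-4 or CTRL-3), with Stab2, a scavenger receptor, at 27.9 ± 3.56 CPM in C1 and 21 ± 2.53 CPM in CTRL (SD, n = 4 each, 0.41 ± 0.10; not called in the 16-library model). Of 17 Kupffer cell and macrophage markers 2 fell and 0 rose (0 in the 16-library model; 1 fell without C1-2 and 4 without CTRL-4), and of 14 T and NK cell markers 0 were called by edgeR or DESeq2 and 0 had an unadjusted p under 0.05. Sox9, a transcription factor gene of bile duct cells, had 2.83, 2.18, 2.32 and 2.03 CPM in C1 and 0.932, 1.20, 1.11 and 1.10 CPM in CTRL (1.11 ± 0.22), as the 1 of 7 tested cholangiocyte markers that was called. Of 11 hepatocyte markers 5 fell and 0 rose, with sums of 76736 to 85210 CPM in C1 and 82494 to 97711 CPM in CTRL. What part these cell types had in the changes of other genes was not tested.

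**Figure D5:**
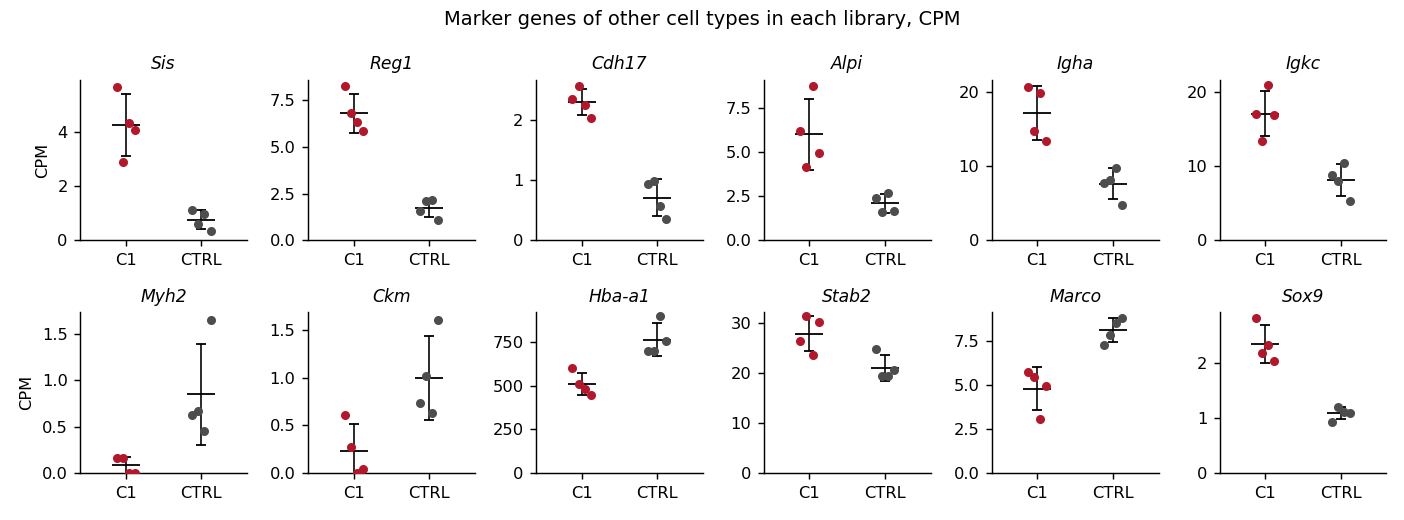
TMM-scaled CPM of 12 marker genes of intestine (Sis, Reg1, Cdh17, Alpi), plasma cells (Igha, Igkc), muscle (Myh2, Ckm), red blood cells (Hba-a1), sinusoidal endothelium (Stab2), macrophages (Marco) and bile duct (Sox9) in each library, C1 in red left of CTRL in grey, with bars for the mean ± SD. The intestinal and immunoglobulin genes drawn are higher in every C1 library than in any CTRL library; the Stab2 libraries overlap.

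At the higher concentrations, which are set against the same CTRL libraries, some of these genes had like values and some did not. In the 16-library model Zbtb16 had log2 fold changes of 2.61, 1.11 and 0.49 at 0.1, 1 and 10 mg/L, the last not called (edgeR adjusted p = 0.28). Vnn1 had -2.09, -1.62 and -2.28, each of them called. Atf3 had 1.53, 1.73 and 1.93, each called. Igfbp1 had -1.54, -1.48 and -0.23, the last not called. The intestinal gene Sis had 2.47, -5.16 and -4.46, and Igha had 1.17, -2.31 and -2.31, so that both were higher than CTRL at 0.1 mg/L and lower at the other concentrations. Differences between concentrations were not tested here.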

How the data were processed

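The authors deposited 1 table of whole-number read counts per gene and library, not normalised, and 0 of its sample columns went unused for want of a label. The submitters' processing notes name STAR (2.5.2b), FastQC (0.11.5), bcl2fastq (2.19.1.403) and the build GRCm38, without their roles. How reads were counted, with which strand setting and annotation, was not given there, so reads cannot be assigned with certainty where genes overlap, lie antisense to each other or have near-identical copies. Gene types and coordinates came from GENCODE M21. After filterByExpr and TMM scaling, edgeR 4.0.16 in R 4.3.3 (glmQLFTest after a robust glmQLFit) was run on the 8 libraries of C1 and CTRL, with 6 residual degrees of freedom. A gene was called at a Benjamini-Hochberg adjusted p under 0.05. The SE of a log2 fold change is its size divided by the root of the F statistic. DESeq2 1.42.0, limma-voom (limma 3.58.1), other scalings, filters and sets of libraries were alternatives. Library measures were compared by exact permutation. Pairs of libraries within a pool differed by more than counting noise (chi-square per degree of freedom 5.45 to 59.3), so each counted as 1. On simulated counts of 16532 genes for this comparison edgeR recovered 68.7%, 92.5% and 100% of 1.5-, 2- and 4-fold changes, with 9 false calls. The changed genes numbered 67, 67 and 66 and were all drawn from those with a mean above 1 CPM. The simulation held no shift of nuclear or ribosomal RNA between the groups, so these figures do not cover such shifts or lower genes.

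The 56 gene lists and the members were chosen with earlier results of these data known. Named genes were the 12 largest rises and falls among genes called in both models, with a mean of at least 2 CPM, no overlap and an established symbol; up to 5 called members of each list; and the most abundant genes. The text gives a part of the 247 genes so named. The 8 further genes Tsc22d3, Fkbp5, Sgk1, Sult1e1, Pdk4, Mt2, Hspa5 and Calr were chosen after their values were seen. Promoter windows are from RefSeq (GRCm38.p6), matched by symbol.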

Additional observations from a re-analysis of the deposited data

Results flagged for a closer look

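In 222 groups of 4 libraries (the CPM of 101 genes and 10 library measures, in each pool), 12 held a highest or lowest library that stood apart from the other 3 by Dixon's ratio, the gap to the nearest library divided by the range of the group, at its 95% critical value. Chance flags about 1 group in 20. Of these groups 5 were in C1 and 7 in CTRL, and CTRL-1 was the library set apart in 5.

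In CTRL, CTRL-1 was highest for Alas1 (758 CPM), the heme synthesis gene, and for Gfpt1 (27.4 CPM), the amino sugar gene. It was lowest for Acox2 (86.8 CPM), Ephx1 (103 CPM) and Prodh (134 CPM). For Acox2 and Ephx1, which fell in C1, it lay on the C1 side of the other CTRL libraries. For the 3 other genes it lay on the far side. The calls of all 5 genes held without CTRL-1. CTRL-4 was highest for Dbp (104 CPM), the clock output gene, and lowest for Serpina7 (25.2 CPM), the thyroxine-binding globulin.

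In C1, C1-4 was lowest for Acadm (196 CPM) and Dbp (47.4 CPM). C1-3 was highest for Ddit4 (3.19 CPM), the mTORC1 inhibitor, and C1-2 was highest for Derl3 (1.69 CPM) and Prodh (210 CPM). Of the calls of these genes, that of Dbp was lost without C1-4 and the others held with any 1 library left out.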

How the results depend on the processing

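The number of changed genes depended most on the set of libraries in the model: 414 were called with all 16 and 2688 with 13, against 2557 with the 8 of C1 and CTRL. Changes of at least 2-fold numbered 106 with all 16 libraries and 55 among genes of at least 5 CPM, where fewer genes were tested, against 322. Leaving out 1 library at a time gave 1556 (without C1-4) to 2935 (without CTRL-1) changed genes and 239 to 449 with at least 2-fold change, and a difference in the nuclear RNA index of 0.471 to 0.665 against 0.547. The other scalings, filters and tools kept both counts within 1.5 times. Replicate numbers did not pair the libraries (same-number correlations -0.13, 0.027, 0.006 and -0.1, and no library correlated best with its own number), and with a replicate block 1837 genes were called. Of 99 called genes given above, 78 held under all alternatives in which they were tested (15 were not tested at a minimum of 5 CPM), 21 were lost with all 16 libraries in the model and 5 without at least 1 library (Sult1e1, Dbp, Ckm, Malat1 and Kcnq1ot1). Under the alternatives 0 changed direction. Depth limits genes under 1 CPM, and 1 pool per group limits every statement to these pools. The cause of the differences between settings was not tested.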

Other observations

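Gene families picked by their symbols were counted besides the lists, and those given here were chosen after their counts were seen. Of all genes tested, 7.1% were called higher and 8.1% lower in C1. Of 12 tested tubulin genes, the subunits of microtubules, 7 fell and 0 rose (median log2 fold change -0.29), and the 16-library model called 0 of them. Of 57 translation factor genes named Eif, 11 fell and 1 rose, and the 16-library model called 0 of them. Of 40 DnaJ co-chaperone genes, 9 fell and 1 rose. Of 42 mitochondrial carriers of the Slc25 family, 9 fell and 4 rose, with 3 lower and 0 higher in the 16-library model. Of 18 chemokine genes of the Ccl and Cxcl families, 5 rose, Cxcl1 among them, and 0 fell, while the median over all 18 was a log2 fold change of -0.07.

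Some noncoding genes also passed the test. Gm26714, an antisense transcript on chromosome 8, had 8.48, 7.35, 6.46 and 8.76 CPM in C1 and 21.3, 19.9, 20.1 and 19.9 CPM in CTRL (log2 fold change -1.37 ± 0.10, edgeR adjusted p = 1.54e-09). Gm7967, a long intergenic noncoding RNA on chromosome 1, had 6.07, 9.91, 7.99 and 9.96 CPM in C1 and 3.22, 3.10, 2.85 and 2.39 CPM in CTRL (1.54 ± 0.16, edgeR adjusted p = 5.67e-07). Gm26917, 1 of the genes counted above at the ribosomal RNA locus, was the gene with the highest level among those that rose at least 2-fold. It had 1494, 1190, 929 and 1300 CPM in C1 and 527, 462, 509 and 436 CPM in CTRL (1.35 ± 0.12, edgeR adjusted p = 8.23e-07; 0.0765 in the 16-library model). With the strand setting of the count unknown, reads of an antisense gene and of its partner cannot be told apart.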
